A study of Saccharomyces cerevisiae with 7 samples.

Results

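The late block of a meiotic time course in budding yeast (Saccharomyces cerevisiae), sampled at 5, 6 and 8 h, was set against its early block, sampled at 1, 2 and 3 h. The comparison used 6 of the 7 arrays of the series, 3 in each block, and the 5585 of 6141 open reading frames (ORFs) that have a value on all 6. The array at 4 h lies between the blocks and stayed out of the fit. Late and early block share a strain labelled spo11-Y135F, an allele in which Spo11, the protein that cuts DNA to start meiotic recombination, lacks its catalytic tyrosine. The titles name the allele for all 7 samples, while the free-text descriptions leave it out at 1 and 2 h, both in the early block. Every difference is therefore one of time within the mutant, and wild-type cells were not analysed here. On each array, mRNA of the time point (Cy5) was hybridised together with a pool of mRNA of the whole course (Cy3), and the deposited value is the log2 of that ratio after division by the ratio at 0 h. A value of 1 therefore marks a transcript whose share of the mRNA was 2-fold its share at 0 h. The authors' design text states 2 independent cultures, but there is 1 column of values per time, so the 3 times of a block stand in for replicates. The spread within a block then includes real change between its times, and successive samples of a course are not independent. In such bulk samples, fewer cells that express a gene and less of its RNA per cell cannot be told apart.

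In budding yeast, starvation lets the regulator Ime1 switch on early meiotic genes, which serve premeiotic DNA replication, recombination and the pairing of chromosomes. The transcription factor Ndt80 then switches on middle genes, which drive the nuclear divisions and build the prospore membrane, the double membrane that encloses each nucleus to form a spore. Genes of the spore wall follow, with the dityrosine layer at its outside made last.

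In the late block 395 ORFs were higher and 157 were lower than in the early block (limma, Benjamini-Hochberg adjusted p under 0.05). Together they made up 9.88% of the ORFs tested, with 7.07% higher and 2.81% lower, and these shares are the background for the counts of gene groups that follow. The rises were larger than the falls: the median size of the difference was 2.26 log2 among the ORFs that rose and 1.67 among those that fell. A difference of at least 4-fold was found for 236 of the risers and 28 of the fallers, one of at least 8-fold for 119 and 3, and one of at least 16-fold for 67 and 0. Most risers had early values near those at 0 h. Their early mean lay within 1 log2 of 0 h for 330 of 395, and their late mean was at least 1 for 353. Among the fallers, 103 of 157 had a late mean of -1 or lower, and 36 had an early mean of 1 or higher. These counts against 0 h were not made over all ORFs. The early columns had medians between -0.02 and 0.03 log2 over all ORFs, so early values near 0 h are not particular to the risers. The median difference over all 5585 ORFs was -0.13 log2, so a negative difference was the more common sign. The exact share of each sign over all ORFs was not counted. Counts of positive and negative differences in the gene groups below therefore have no background share. By rank alone, 553 ORFs (9.90%) had all 3 late values above all 3 early ones with a mean difference of at least 1 log2, and 410 (7.34%) the opposite order. The smallest p an exact permutation test of 3 against 3 allows is 0.1, so these orders are descriptions. The number of calls depended on single arrays. It was 297 without the 1 h array, 255 without 2 h, 320 without 6 h and 812 without 8 h. Calls of lower ORFs moved most, to 35 without 1 h, 17 without 2 h, 101 without 5 h, 48 without 6 h and 291 without 8 h. Calls of higher ORFs came to 262 without 1 h and 238 without 2 h. Of the 395 that rose, 216 passed with each of the 6 arrays left out in turn, and of the 157 that fell, 15 did. The late columns also spread wider. Standard deviations over ORFs were 1.36, 1.49 and 1.12 log2 in the late block (5, 6 and 8 h). In the early block they were 0.85, 0.84 and 0.87. Once all 6 columns were given the same distribution by quantile normalization, 331 ORFs rose and 172 fell. These include only 299 of the 395 risers and 89 of the 157 fallers, so similar totals do not mean the same ORFs. Losses under this setting are given below for part of the genes only.

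**Figure D1:**
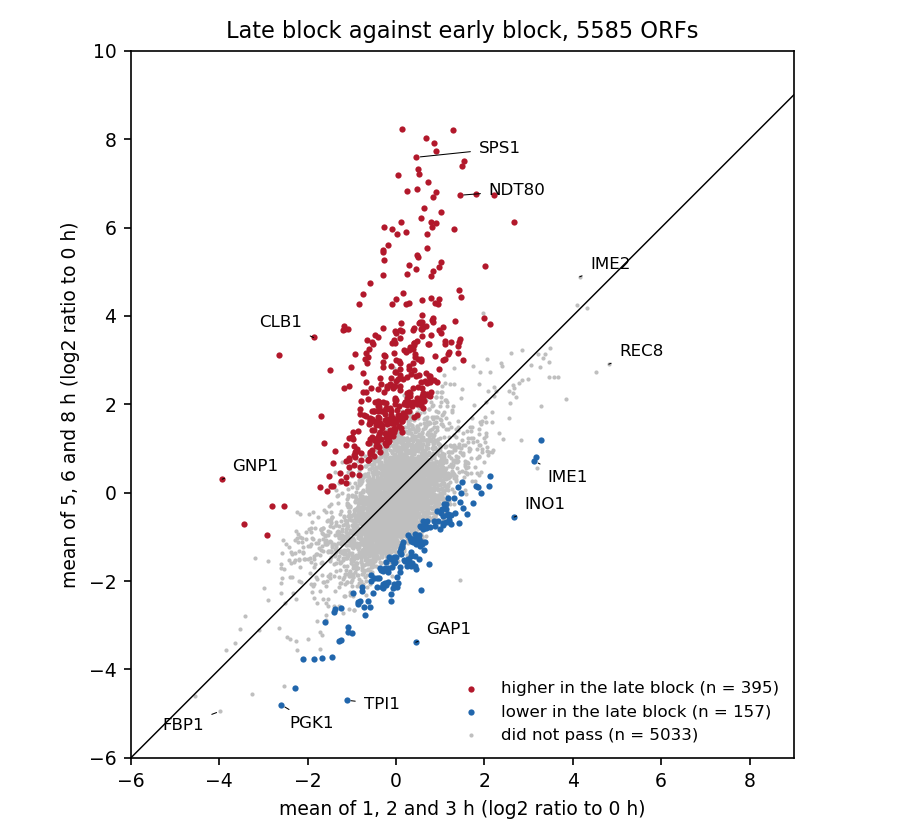
Mean of the 3 late arrays (vertical axis) against the mean of the 3 early arrays (horizontal axis), both as log2 ratio to 0 h, with a point per ORF and the line of equal means. The 395 ORFs that rose form a column above early means near 0, and the 157 that fell lie in a narrower band under the line.

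The 12 largest rises among ORFs with a gene name lay between 6.05 and 7.35 log2. SPS1, a protein kinase needed for spore formation, had 7.14, 8.49 and 7.14 in the late block (5, 6 and 8 h), against 0.57, 0.56 and 0.23 in the early block (1, 2 and 3 h). Its difference of 7.13 ± 0.43 log2 (limma moderated SE, n = 3 arrays a block, limma adjusted p = 1.78e-06) is a 140-fold one. Each SE given here is of this kind: limma draws the variance of an ORF toward a value shared by all ORFs. It can thus be smaller or larger than the spread of the 6 printed values alone. PIR5, of a family of cell wall proteins, had 6.72, 9.89 and 7.45 in the late block, against 1.12, 1.16 and -0.27 in the early block, a difference of 7.35 ± 0.69 log2 (adjusted p = 2.15e-05). For both genes every late value lay more than 5 log2 above every early one. The other named genes among the 12 largest rises were RRT5 (7.14), the spore wall gene SPR2 (7.04), SPS2 (6.92), HXT14 (6.83), the sporulation septin SPR28 (6.83), SGA1, which encodes the glucoamylase that breaks down glycogen in sporulation (6.69), the chitinase gene CTS2 (6.59), SSP1 (6.39), SSP2 (6.28) and SPR6 (6.05). The smallest adjusted p of all ORFs was that of YPR078C, which has no gene name in the reference table, with 7.68, 9.02 and 8.01 in the late block, against 0.06, 0.71 and -0.35 in the early block (difference 8.10 ± 0.45 log2, adjusted p = 1.37e-06). The largest rises held on every array: these 13 ORFs passed with each of the 6 arrays left out, with adjusted p of at most 0.000864.

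**Figure D2:**
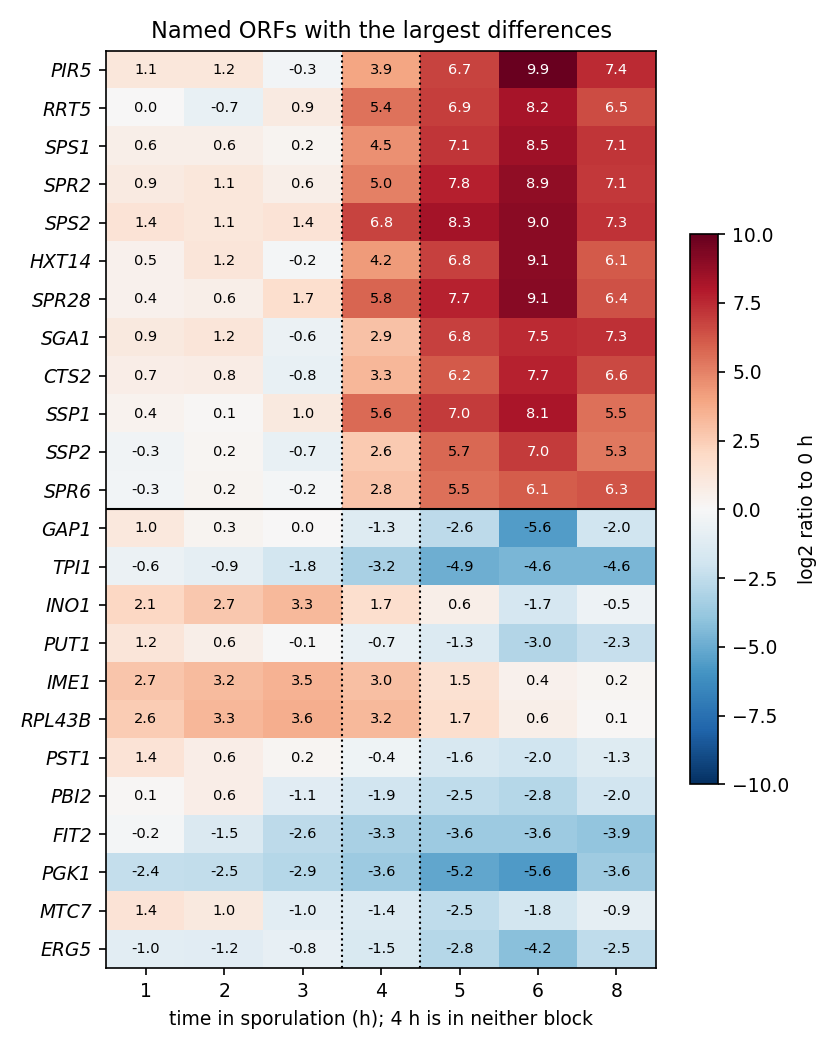
Log2 ratio to 0 h of the 12 named genes with the largest rise (upper rows) and the 12 with the largest fall (lower rows) at each of the 7 times, coloured from blue (below 0 h) to red (above 0 h). The upper rows lie between 5.3 and 9.9 in the late block and between -0.8 and 1.7 in the early block, and dotted lines set off the 4 h array, which is in neither block.

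The regulators that start the early and the middle genes passed in opposite directions. IME1, which starts meiosis, fell: it had 1.50, 0.41 and 0.23 in the late block, against 2.75, 3.15 and 3.50 in the early block (difference -2.42 ± 0.43 log2, limma adjusted p = 0.00307), with no overlap. NDT80, which starts the middle genes, rose, with 7.24, 7.47 and 5.48 in the late block and 1.51, 1.07 and 1.74 in the early block (5.29 ± 0.51 log2, adjusted p = 2.28e-05). For NDT80, too, the blocks did not overlap. Of 6 regulators of the middle genes, NDT80, PES4 (5.87) and MIP6 (5.15), the last ones both coding for RNA-binding proteins, rose, with a median difference of 3.36 over the list. The components of the repressor that holds middle genes off, SUM1 (0.50), HST1 (1.35) and RFM1 (1.56), had positive differences that did not pass (adjusted p = 0.443, 0.0861 and 0.0604). IME2, the kinase that Ime1 activates, had 5.90, 4.81 and 3.94 in the late block and 3.05, 4.28 and 5.14 in the early block. Its blocks overlapped, and the difference of 0.73 did not pass (adjusted p = 0.48). After quantile normalization the difference of IME2 had the opposite sign, -2.35 (adjusted p = 0.00344). Among 14 genes of meiotic entry IME1 was the only call, 0 rose, and the median difference was 0.02 as deposited and -0.80 after quantile normalization, and also below 0 without the 1, 5 or 6 h array and with 4 h in the early block.

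Many genes of the nuclear divisions were higher in the late block. The anaphase-promoting complex (APC/C) marks securin and cyclins for destruction so that chromosomes can separate, and of 16 measured genes for its subunits, activators and targets 10 rose and 0 fell, with a median difference of 2.47. CDC27, a core subunit, had 4.28, 5.95 and 5.41 in the late block, against 0.90, 1.02 and 1.14 in the early block (4.19 ± 0.44 log2, adjusted p = 5.5e-05). The other core subunits that rose were CDC23 (3.41), CDC26 (2.97), CDC16 (2.90), APC5 (2.63), APC11, the RING subunit (2.57), and APC2, the cullin subunit (2.38). AMA1, the activator used in meiosis alone, was above 0 h at all 6 times, with 6.45, 5.61 and 6.32 late and 2.17, 2.47 and 3.39 early. Its difference was 3.45 ± 0.43 log2 (adjusted p = 0.000198), but it did not pass after quantile normalization (0.51, adjusted p = 0.479). CDC20, the activator shared with mitosis, rose by 2.96 ± 0.40 log2 (adjusted p = 0.000426). PDS1, the securin gene, rose by 1.96 (adjusted p = 0.0111), with early values already between 1.81 and 2.23, and was lost without 1 or 2 h (up to 0.0587) and after quantile normalization (0.93). Within the complex the subunit genes did not move alike: APC9 (1.36) and APC4 (1.42) did not pass (adjusted p = 0.0606 and 0.073), and neither did SWM1 (0.39), MND2 (-0.41) and DOC1 (-0.62), nor ESP1, the separase gene (0.29). Of the 10 calls 9 held with every array left out in turn and 8 after quantile normalization.

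Of the cyclin genes CLB1 to CLB6, all but CLB2 rose. CLB1, an M-phase cyclin, had 3.30, 4.70 and 2.53 in the late block, against -0.57, -2.57 and -2.46 in the early block (5.38 ± 0.62 log2, limma adjusted p = 0.000108), so it passed from below to above its 0 h level. CLB4 (3.33) and CLB3 (2.76), further M-phase cyclins, rose as well, and so did CLB6 (3.77) and CLB5 (2.01), which drive S phase in the mitotic cycle. CLB6 is the neighbour of CLB1 in gene order, and whether its spot also measures CLB1 RNA was not tested. CLB2, the main M-phase cyclin of mitosis, did not pass: it had 0.07, 0.87 and -0.90 late and -0.03, -1.84 and -0.87 early, with overlapping blocks (0.93 ± 0.54 log2, adjusted p = 0.317). CDC5, the polo kinase, rose by 3.60 ± 0.53 log2 (adjusted p = 0.000865), and SPO12, which acts at exit from division, by 1.74 (adjusted p = 0.0477). With CDC14, CDC15, DBF2, DBF20, SWE1, BNS1 and CKS1 not passing, 7 of 15 genes of this list rose and 0 fell (median 1.23). Without the 1 h array 5 of the 7 passed, and likewise without 5 h or without 6 h (adjusted p up to 0.178). The genes lost were SPO12 and CLB5, which did not pass after quantile normalization either (adjusted p = 0.681 and 0.46).

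Spindle and kinetochore genes rose in part. Of 16 spindle genes 4 rose and 0 fell (median 0.67): SPC42, of the spindle pole body core (3.12), the motor genes CIN8 (2.70) and KAR3 (2.45), and STU2, a microtubule polymerase (2.20). All 4 held with every array left out, and all but CIN8 (adjusted p = 0.0737) after quantile normalization. Of 17 genes of the kinetochore and of monopolin, which makes sister chromatids attach to the same pole in the meiosis I division, 3 rose and 0 fell (median 0.28). HRR25, the casein kinase of monopolin, had 3.22, 4.37 and 2.14 in the late block, against 0.29, 0.41 and 0.47 in the early block (2.85 ± 0.50 log2, limma adjusted p = 0.00299). MAM1, the monopolin subunit found in meiosis alone, rose by 1.88 (adjusted p = 0.00953, 0.0879 without the 2 h array and 0.109 after quantile normalization). SGO1, which protects cohesin at centromeres, rose by 1.64 (adjusted p = 0.0394). It was lost without 1, 2, 3, 5 or 6 h (up to 0.129) and after quantile normalization (0.0755). CSE4, the centromeric histone, had the lowest difference of the list, -1.22 (adjusted p = 0.155).

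The meiotic plaque is the outer face of the spindle pole body on which the prospore membrane starts, and the leading edge coat sits at the mouth of that membrane. Of 10 genes for both, 9 rose and 0 fell, with a median difference of 3.02. SSP1, of the leading edge, had 6.98, 8.14 and 5.49 in the late block, against 0.36, 0.12 and 0.97 in the early block (6.39 ± 0.57 log2, limma adjusted p = 1.29e-05). Its partners DON1 and ADY3 rose by 4.14 and 3.09. Among plaque genes, SPO74 rose by 5.33, SPO21 by 3.30, ADY4 by 2.95, CNM67 by 2.60 and MPC54 by 1.70. NUD1, a pole body component that mitosis uses too, was the member that did not pass (-0.25, adjusted p = 0.72). MPC54 and IRC10 (2.22) had early values as high as 2.59 and 2.46, near the lowest late values of 3.15 and 2.56. MPC54 and IRC10 were lost without 1, 5 or 6 h among others (adjusted p up to 0.162), and after quantile normalization both were lost together with ADY4 and ADY3 (up to 0.966).

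Of 19 measured genes for the prospore membrane and the kinases and phosphatase subunits of spore formation, 16 rose and 0 fell, with a median difference of 4.87. The list median was 3.98, 4.73 and 3.22 in the late block, against -0.10, 0.24 and 0.23 in the early block. SPR28 and SPR3, septins of the prospore membrane, rose by 6.83 and 5.82. SPO20, the sporulation SNARE that fuses vesicles into the membrane, had 6.51, 6.78 and 5.39 late and 0.22, 0.76 and 0.73 early (5.66 ± 0.43 log2, limma adjusted p = 3.96e-06). SPO14, the phospholipase D that feeds the same membrane, rose by 1.51 (adjusted p = 0.037), a call lost without 1, 2, 3, 5 or 6 h (up to 0.153) and after quantile normalization (0.0585). SMA2 (5.20), SMA1 (3.26), SPO77 (4.87), the MAP kinase gene SMK1 (4.10), the phosphatase targeting subunit GIP1 (4.01), SPO71 (2.45) and SPO75 (2.37) rose as well. The members that did not pass were SPO73 (1.11), SPS4 (-0.25) and SPO1 (-0.26). SPO1, a phospholipase-like gene, was above 0 h on all 6 arrays, with 2.52, 3.06 and 1.32 late and 1.91, 1.71 and 4.05 early. Of the 16 calls 14 held with every array left out, and 14 after quantile normalization.

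Spore wall genes came next in size, with 17 of 24 higher, 0 lower and a median difference of 4.25. The enzymes of the inner, glucan and chitosan layers rose together: SPR1, a glucanase, by 5.95, the glucanosyltransferases GAS4 and GAS2 by 6.01 and 5.78, and the chitin deacetylases CDA1 and CDA2 by 5.84 and 4.39. GAS2 had 5.90, 5.69 and 5.23 in the late block and -0.27, 0.17 and -0.41 in the early block, a flat course within either block (SE 0.37, limma adjusted p = 1.78e-06). The genes for the dityrosine layer did not share 1 course. DTR1, which exports the dityrosine precursor, had 4.28, 5.61 and 3.57 late and -0.59, -0.68 and -0.99 early (5.24 ± 0.49 log2, adjusted p = 1.85e-05). DIT2, one of the enzymes that make the precursor, had 2.30, 2.17 and 5.72 late and 0.97, 0.99 and -0.71 early. It passed (2.98 ± 0.81 log2, adjusted p = 0.036), though not without the 1, 2, 3 or 5 h array (adjusted p up to 0.134). DIT1, the other enzyme, had 0.55, 3.75 and 8.52 late and 0.22, 0.99 and -0.38 early. Its mean difference of 4.00 was 16-fold, but its late values lay about 8 log2 apart, its blocks overlapped, and it did not pass (SE 1.37, adjusted p = 0.0917). SPS100, a late wall gene, was above 0 h at 8 h alone, with -0.81, -1.29 and 3.45 late and -1.06, -0.57 and -0.26 early (1.08 ± 0.93 log2, adjusted p = 0.513). SHC1, the sporulation activator of chitin synthase, was highest at 8 h too, with 0.91, 0.55 and 3.33 late and 0.28, 0.90 and 1.53 early (adjusted p = 0.544). A mean over 5, 6 and 8 h thus does not describe these last genes. CHS3 (-0.05), LDO16 (-0.04), OSW1 (1.51) and RRT8 (-0.16) did not pass either. Of the 17 calls 16 held with every array left out, DIT2 being the exception, and 15 after quantile normalization.

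**Figure D3:**
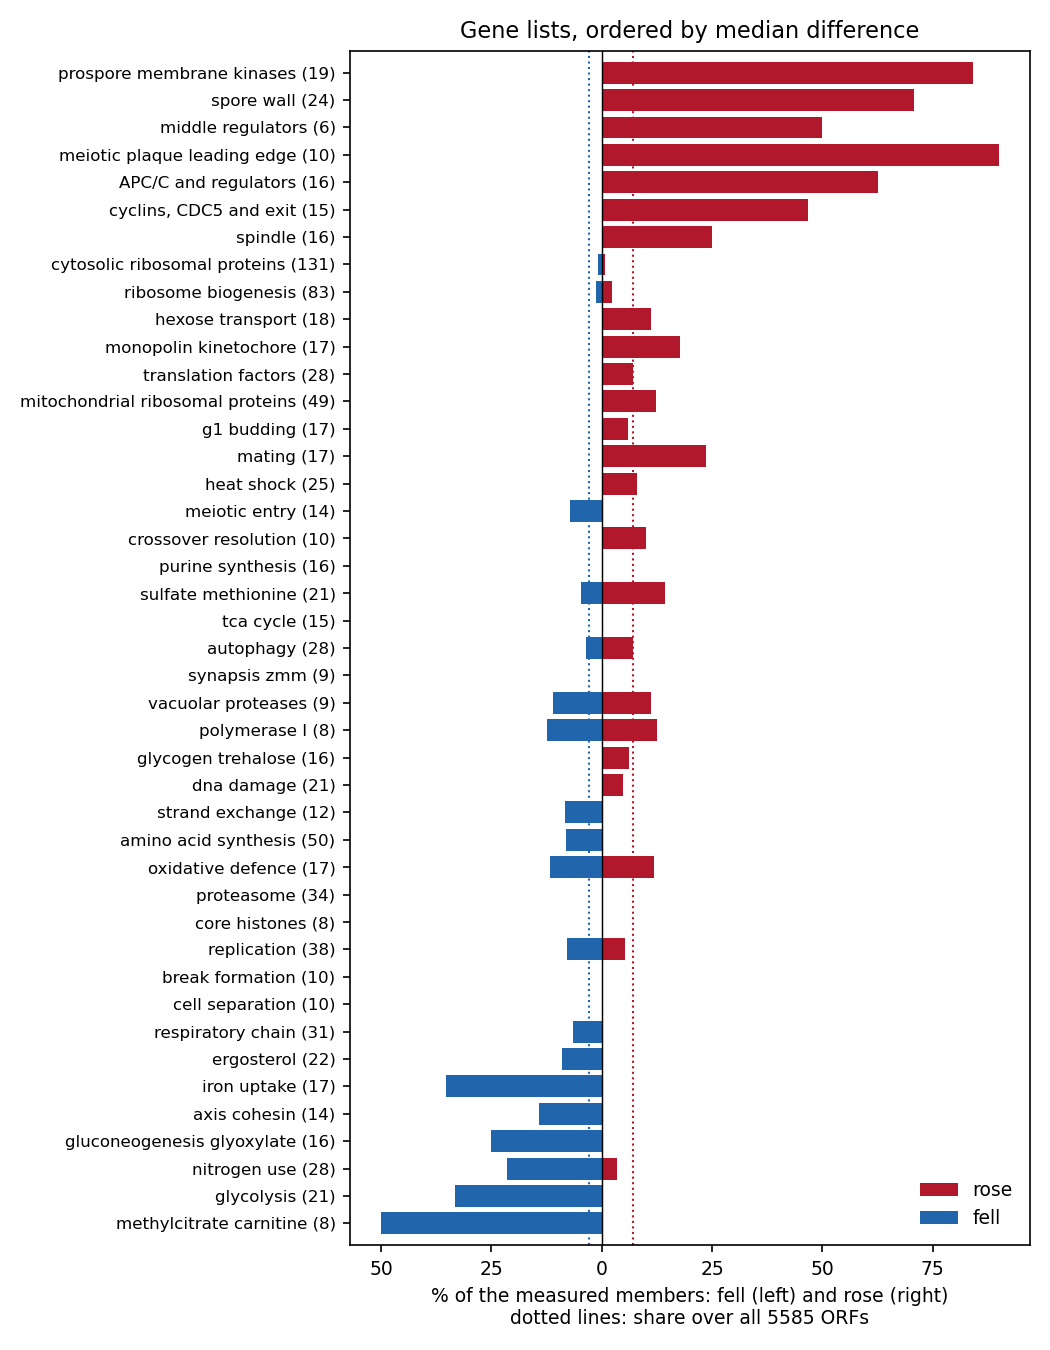
Share of the measured members of each of 43 gene lists that fell (bars to the left) or rose (bars to the right), in percent, with the lists ordered by their median difference and the number measured in brackets. Dotted lines mark the shares over all ORFs, 2.81% lower and 7.07% higher; the lists of the meiotic plaque, the prospore membrane, the spore wall and the APC/C reach farthest to the right, and those of the methylcitrate cycle and carnitine, iron uptake and glycolysis farthest to the left.

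Few genes of meiotic prophase passed the test. Late and early mean were both above 0 h for 7 of 10 genes of break formation, 10 of 14 of the axis and cohesin, 9 of 9 of synapsis, 10 of 12 of strand exchange and 6 of 10 of crossover resolution. The same count was not made over all ORFs, so these have no background share. Over all ORFs the medians of the 6 columns lay between -0.15 and 0.03 log2. All 10 measured genes of double-strand break formation had a negative difference, between -0.10 for NAM8 and -0.91 for RAD50, with a median of -0.61, and 0 passed in either direction. The median difference over all ORFs was -0.13. SPO11 itself had 0.80, 2.12 and -0.27 in the late block and 0.88, 1.32 and 2.33 in the early block (difference -0.63 ± 0.57 log2, limma adjusted p = 0.543). Among 14 genes of the chromosome axis and of cohesin, the ring that holds sister chromatids together, all differences were negative, with a median of -0.85, and 2 fell. REC8, the meiotic cohesin subunit, had the most negative one, with 4.43, 2.26 and 2.03 late and 3.89, 4.57 and 5.99 early (-1.91 ± 0.65 log2, adjusted p = 0.0917). Its blocks overlapped through the 5 h value. The calls were MCD1, the subunit that Rec8 replaces in meiosis (-1.43, adjusted p = 0.0358), and RAD61, a cohesin release factor (-1.47, adjusted p = 0.0326). Neither call held with every array left out: RAD61 was lost without 1, 2, 3, 6 or 8 h and MCD1 without 1, 2, 3, 5 or 6 h (adjusted p up to 0.123 and 0.232). HOP1, an axis protein, differed by -0.13 (adjusted p = 0.928), with 3.89, 5.88 and 2.80 late and 3.44, 4.31 and 5.21 early.

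Synapsis genes had a median difference of -0.16 over 9 genes, with 0 calls, and that median was above 0 without the 8 h array (0.51), without the 3 h array (0.34), with array weights (0.23) and with 4 h in the late block (0.12). ZIP1, the central element of the synaptonemal complex, had 3.98, 3.26 and 2.19 late and 1.71, 3.21 and 4.70 early, mirror-image courses with nearly equal means (difference -0.06, limma adjusted p = 0.966). Of 12 strand exchange genes SHU2, a recombination mediator, fell (-1.72, adjusted p = 0.0242) and 0 rose. SHU2 did not pass without 1, 2, 5 or 6 h (adjusted p up to 0.108). DMC1, the meiotic recombinase, had 2.84, 2.15 and 1.34 late and 2.71, 4.05 and 4.80 early (-1.74 ± 0.54 log2, adjusted p = 0.0639). Of 10 genes of crossover resolution EXO1, a nuclease, rose by 2.26 (adjusted p = 0.0113) and 0 fell. EXO1 did not pass without 2, 5 or 6 h (up to 0.0563) or after quantile normalization (0.0939). The list median of -0.01 became 0.09 with columns centred on their medians.

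Replication genes had a median difference of -0.56 over 38 genes, 29 of them negative, with 3 lower and 2 higher. POL30, the sliding clamp PCNA, had -0.06, 0.64 and -0.57 in the late block and 1.63, 2.84 and 1.28 in the early block (-1.92 ± 0.48 log2, limma adjusted p = 0.0245). RFC5, a subunit of the loader of that clamp and the neighbour of POL30 in gene order, differed by -1.48 (adjusted p = 0.0292), and MCM6, of the replicative helicase, by -1.34 (adjusted p = 0.0415). Genes for 2 subunits of the origin recognition complex went the other way: ORC3 rose by 2.57 (adjusted p = 0.00234) and ORC1 by 1.87 (adjusted p = 0.0177). Of these 5 only ORC3 passed with each array left out; all 3 fallers were lost without 1 h or without 2 h (adjusted p up to 0.2), and ORC1 without 1, 2 or 6 h (up to 0.102). The other 33 genes of the list did not pass. ORC1 is the neighbour in gene order of SMA2, which rose by 5.20, and ORC3 is next to SPO75 (2.37) by systematic number. Whether the ORC spots also measure RNA of these neighbours was not tested. The 8 core histone genes had a median difference of -0.56 with 0 calls, and of 0.05 without the 2 h array.

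**Figure D4:**
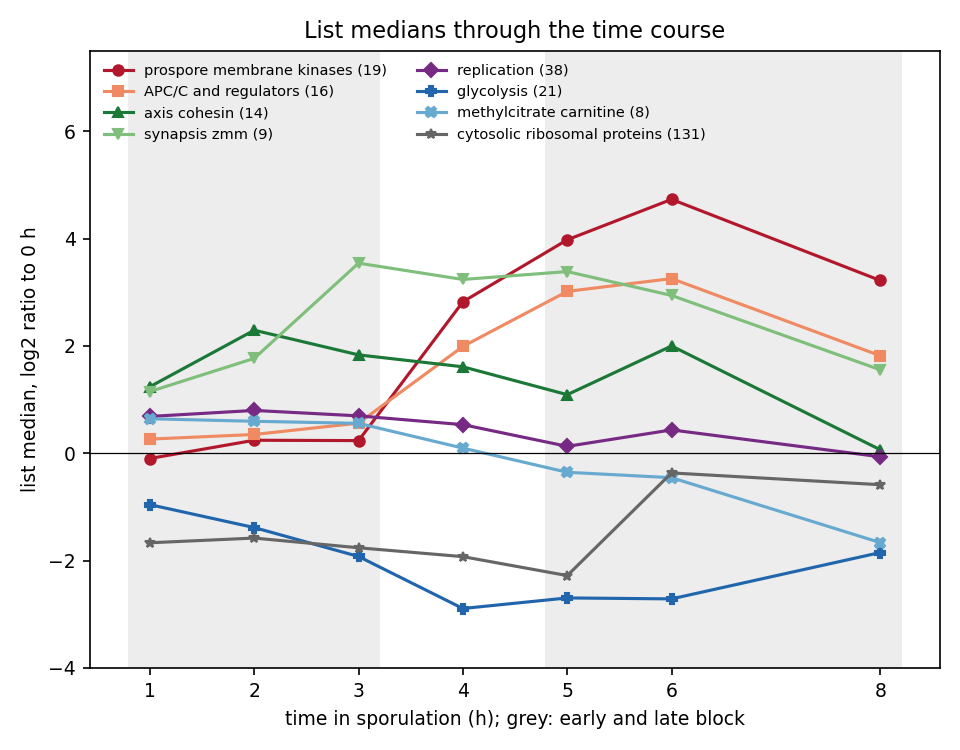
Median log2 ratio to 0 h of 8 gene lists (number of genes in brackets) at the 7 times, with the early and late block shaded grey. The medians of the prospore membrane and APC/C lists lie near 0 in the early block and above 1.8 in the late block, the axis and synapsis medians are above 0 in both blocks, and the glycolysis median is below 0 throughout.

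The 12 largest falls among ORFs with a gene name lay between -3.83 and -2.18 log2. GAP1, the general amino acid permease, had -2.62, -5.57 and -1.96 in the late block, against 1.05, 0.25 and 0.04 in the early block (-3.83 ± 0.74 log2, limma adjusted p = 0.00557). TPI1, the glycolytic triosephosphate isomerase, had -4.90, -4.60 and -4.59 late and -0.62, -0.92 and -1.80 early (-3.58 ± 0.40 log2, adjusted p = 8.9e-05), the smallest adjusted p of any faller. INO1, which makes inositol phosphate for phospholipids, had 0.58, -1.69 and -0.55 late and 2.08, 2.67 and 3.28 early (-3.23 ± 0.54 log2, adjusted p = 0.0022). In all 3 the blocks were apart by more than 1.4 log2. PUT1, the proline oxidase (-2.76), IME1 and RPL43B (-2.36) followed. RPL43B, a ribosomal protein gene, had 1.67, 0.61 and 0.15 late and 2.56, 3.30 and 3.65 early. Each value lay within about 0.2 of that of IME1, its neighbour in gene order. Whether the RPL43B spot also measures IME1 RNA was not tested. The rest of the 12 largest falls were PST1, a cell wall protein (-2.36), PBI2, an inhibitor of a vacuolar protease (-2.32), FIT2, a cell wall mannoprotein that holds iron (-2.27), PGK1 (-2.21), MTC7 (-2.18) and ERG5 (-2.18). Of the 12, 8 passed with every array left out; PBI2 was lost without 2 h (adjusted p = 0.0601), and FIT2, PGK1 and MTC7 without 1, 2, 5 or 6 h (up to 0.16).

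Glycolysis held 7 fallers among 21 genes and 0 risers, with a median difference of -1.26. Beside TPI1 and PGK1 these were ADH1, alcohol dehydrogenase (-2.08), GPM1 (-2.06), TDH1 (-1.90), CDC19, pyruvate kinase (-1.86), and PGI1 (-1.26). PGK1, phosphoglycerate kinase, was already far below 0 h in the early block, with -5.19, -5.64 and -3.57 late and -2.41, -2.48 and -2.89 early (limma adjusted p = 0.0151). HXK2, a hexokinase, had the highest difference (0.85, adjusted p = 0.204). Isozyme genes such as TDH1 resemble their paralogs in sequence, so that a spot may report several of them. The calls other than TPI1 were not stable: 6 of 7 were lost without 1 h, 6 without 2 h, 5 without 5 h and 5 without 6 h (adjusted p up to 0.173), and 2 of 7 held after quantile normalization. Among 18 hexose transporter genes, HXT14 rose by 6.83 and HXT10 by 4.79, with 3.47, 2.59 and 5.03 late and -0.59, -0.54 and -2.15 early for HXT10 (adjusted p = 0.000253), and 0 fell (median 0.29). HXT2, a transporter of high affinity, differed by -1.71 (adjusted p = 0.062). HXT genes share long stretches of sequence, so cross-hybridisation is possible and was not tested.

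Genes for using acetate and fatty acids fell in part. Of 16 genes of gluconeogenesis and the glyoxylate cycle 4 fell and 0 rose (median -0.97): IDP2, a cytosolic isocitrate dehydrogenase (-2.07), MLS1, malate synthase (-1.86), ALD4, aldehyde dehydrogenase (-1.44), and ATO3 (-1.33). IDP2 had -3.06, -3.50 and -2.92 in the late block and -0.33, -1.71 and -1.23 in the early block (limma adjusted p = 0.00821) and was the one of the 4 that passed with every array left out. The other 3 were lost without 1 h (adjusted p up to 0.167). After quantile normalization MLS1 alone of the 4 held (adjusted p = 0.0253), and IDP2 did not pass (0.0527). PCK1, which starts gluconeogenesis, went against the list with 1.72 (adjusted p = 0.0568). All 8 genes of the methylcitrate cycle, which breaks down propionate, and of carnitine transfer had a negative difference, with a median of -1.51, and 4 fell. PDH1, of the methylcitrate cycle, had -1.09, -1.56 and -2.31 late and 0.65, 0.35 and 0.28 early (-2.07 ± 0.40 log2, adjusted p = 0.00605). Its neighbour CIT3, the mitochondrial methylcitrate synthase, fell by 1.98, ICL2 by 1.80 and YAT1, a carnitine acetyltransferase, by 1.60. All 4 calls held after quantile normalization, but 3 of them were lost without 1 h and 3 without 2 h (adjusted p up to 0.137). Of 31 respiratory chain genes 2 fell and 0 rose, with 26 negative and a median of -0.65; these were COX12 (-1.82, adjusted p = 0.0151) and ATP2 (-1.32, adjusted p = 0.0452), both lost without 1 h or without 2 h (up to 0.159). The 15 TCA cycle genes had 0 calls and a median of -0.08, which was 0.12 after quantile normalization and 0.01 after centring.

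Of 28 genes of nitrogen use 6 fell and 1 rose, with a median difference of -1.13 and 23 of them negative. Beside GAP1 and PUT1 the fallers were genes of allantoin use, DAL3 (-2.17), DAL5 (-2.08), DAL2 (-1.97) and DAL7 (-1.88). DAL5, the allantoate permease, was above 0 h on all 6 arrays, with 1.94, 0.19 and 1.46 late and 4.65, 2.95 and 2.22 early (limma adjusted p = 0.0498). The riser was GLN1, glutamine synthetase, with 0.49, 0.71 and 1.65 late and -0.66, -1.35 and -0.72 early (1.86 ± 0.42 log2, adjusted p = 0.014, and 0.102 without the 2 h array). The calls of GAP1, PUT1 and DAL7 held with every array left out, and 3 of the 6 falls were lost without each of 1, 2, 5 and 6 h (up to 0.194). Of 50 genes of amino acid synthesis 4 fell and 0 rose, among them ARG1 (-1.99) and ARG3 (-1.88) of arginine synthesis, ILV2 (-1.49) and GCN4, the transcription factor of the pathway (-1.40). None of the 4 held with every array left out (adjusted p up to 0.219). In sulfate and methionine use, 3 of 21 rose and 1 fell: MUP1, the methionine permease, had -0.59, -1.16 and -0.39 late and -3.78, -3.35 and -3.21 early (2.74 ± 0.38 log2, adjusted p = 0.000513), the activator genes MET4 and MET32 rose by 1.68 and 1.56, and SAM2 fell by 1.49. MUP1 held with every array left out, the other 3 did not (up to 0.143). Purine synthesis had 0 calls among 16 genes, and its median of -0.07 was 0.21 after quantile normalization.

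Iron uptake genes fell in 6 of 17 cases and rose in 0, with a median difference of -0.79. SIT1, a siderophore transporter, had -3.64, -3.03 and -3.42 in the late block and -0.88, -1.44 and -1.53 in the early block (-2.08 ± 0.38 log2, limma adjusted p = 0.00362). FIT2, FIT3 (-1.70), the iron oxidase FET3 (-1.67), its permease partner FTR1 (-1.30) and the low affinity transporter FET4 (-1.27) fell as well, while FIT1, of the same family as FIT2 and FIT3, differed by 0.44 (adjusted p = 0.599). SIT1 alone held with every array left out; 5 of the 6 were lost without 1 h and 5 without 2 h (up to 0.195), and 2 held after quantile normalization. Of 22 ergosterol genes 20 had a negative difference, with a median of -0.66. ERG5, a sterol desaturase, had -2.84, -4.17 and -2.50 late and -1.03, -1.15 and -0.78 early (-2.18 ± 0.45 log2, adjusted p = 0.00896). ERG2, a sterol isomerase, fell by 1.50 (adjusted p = 0.049, and up to 0.18 without 1, 2, 3, 6 or 8 h). These were the 2 falls of the list, and 0 rose.

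Ribosomal protein genes had mostly positive differences, of which few passed. Of 131 cytosolic ribosomal protein genes 114 had a positive difference, with a median of 0.57 beside -0.13 for all ORFs, and 1 rose and 1 fell. The faller was RPL43B, beside IME1. The list median was -2.28, -0.37 and -0.59 late and -1.67, -1.58 and -1.76 early, so the 6 and 8 h medians lay above all early ones and the 5 h median below them. Most of these genes come as near-identical pairs, which a spot may not separate. Of 83 ribosome biogenesis genes 2 rose and 1 fell, with a median of 0.33 that was -0.05 without the 8 h array. DBP3 and DRS1, RNA helicases that act on the pre-ribosome, rose by 2.87 (adjusted p = 0.000472) and 2.26 (adjusted p = 0.00724), and MAK11 differed by -1.55 (adjusted p = 0.0401). DBP3 held with every array left out, DRS1 was lost without 2 h (0.0511) and MAK11 without 1, 2, 3, 5 or 6 h (up to 0.142).

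Neighbouring subunit genes of RNA polymerase I went opposite ways. RPA43 had 1.29, 3.42 and 1.46 in the late block and -0.04, -0.50 and -0.33 in the early block (2.34 ± 0.52 log2, limma adjusted p = 0.0136). RPA190, the largest subunit, had -1.98, -2.52 and -1.23 late and -0.34, 0.26 and 0.13 early (-1.93 ± 0.42 log2, adjusted p = 0.0113). UBC11, on the other side of RPA43, rose. Both polymerase calls were lost without the 2 h array (adjusted p = 0.062 and 0.0742). Of 28 translation factors 2 rose and 0 fell, TIF11 (2.11) and PRT1 (1.73), neither with every array left out (up to 0.104). Of 49 mitochondrial ribosomal protein genes 6 rose and 0 fell, beside 7.07% higher among all ORFs. MRPS17 had 2.20, 3.24 and 1.80 late and -0.81, -1.19 and -1.21 early (3.48 ± 0.43 log2, adjusted p = 0.000187). MRPL37 (2.26), MRP20 (2.18), MRP49 (2.01), MRPL20 (1.63) and MRPL27 (1.42) were the others, while the list median was 0.25, and 3 of the 6 held with every array left out (up to 0.197 otherwise).

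Protein turnover and stress genes gave few calls. The 34 proteasome genes had 0 calls in either direction with 31 negative differences, a median of -0.41 and a range from -1.15 (RPN12) to 0.36 (RPN2). Of 28 autophagy genes 2 rose and 1 fell. ATG3, of the conjugation system for Atg8, had 3.32, 2.72 and 1.68 in the late block and 0.19, 0.11 and 0.18 in the early block (2.42 ± 0.44 log2, limma adjusted p = 0.00363), ATG8 rose by 1.69 (adjusted p = 0.0437) and ATG19, a cargo receptor, differed by -1.95 (adjusted p = 0.0252). ATG3 alone of these held with every array left out (up to 0.173 otherwise). PEP4, the vacuolar proteinase A, rose by 1.93 (adjusted p = 0.0117, and 0.0518 after quantile normalization), and PBI2 fell. The other 7 of 9 vacuolar protease genes did not pass. Among 25 heat shock genes SSA3 (2.12) and HSP26 (1.67) rose and 0 fell, neither with every array left out (up to 0.134). Among 17 genes of oxidative defence, CTT1, the cytosolic catalase, had 1.97, 3.20 and 4.92 late and 0.35, -0.57 and -1.32 early (3.87 ± 0.65 log2, adjusted p = 0.00223) and held with every array left out. CCP1 (1.32) rose, and GRX2 (-1.77) and GLR1 (-1.40) fell, all 3 lost without 1 h or without 2 h (up to 0.203). SGA1 was the 1 call among 16 genes of glycogen and trehalose. Of 21 DNA damage genes DIN7, a mitochondrial nuclease gene, rose by 1.42 (adjusted p = 0.0492) and was lost without 1, 2, 3, 5 or 6 h (up to 0.156), and 0 fell. The list median was -0.29. After quantile normalization ATG8, SSA3, CCP1, GRX2, GLR1 and DIN7 did not pass (adjusted p from 0.0579 to 0.338).

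Genes of cells outside meiosis were looked at as markers of other cells in the culture. Of 17 genes of mating and haploid cells 4 rose and 0 fell, with a median difference of 0.09: FUS2, which acts in cell fusion (3.45), STE4, a G protein subunit of the pheromone pathway (2.98), STE3, a pheromone receptor (2.97), and STE12, the transcription factor of that pathway (1.28). FUS2 had 2.77, 3.61 and 1.76 in the late block and -1.68, -0.29 and -0.26 in the early block (limma adjusted p = 0.00113), and STE3 had 3.21, 4.60 and 2.52 late and 0.15, 0.35 and 0.93 early (adjusted p = 0.00234). The first 3 held with every array left out, while STE12 (adjusted p = 0.049) was lost without 1, 2, 3, 5 or 6 h (up to 0.266). Over the 17 genes the markers did not move together: 9 differences were positive and 8 negative, with a first quartile of -0.45. Of 10 genes of daughter cell separation 0 passed, with the lowest difference at -1.80 (SCW11) and a list median of -1.24 for the late means and -0.33 for the early means. The values are ratios, so the absolute level of these markers is unknown. Of 17 genes of G1 and budding MBP1 rose by 1.52 (adjusted p = 0.0281, up to 0.111 without 1, 2, 3, 5 or 6 h) and 0 fell. ACT1, often used as a reference, had -1.74, -1.68 and -0.99 late and -1.49, -1.17 and -0.79 early (-0.32 ± 0.39 log2, adjusted p = 0.662). The part of other cells in the differences between the blocks was not tested.

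The 4 h array, which the comparison did not use, lay between the block means for most of the called ORFs. Its position was expressed as a share of the way from the early mean (0) to the late mean (1). For the 395 ORFs that rose the median position was 0.56 (quartiles 0.33 and 0.72), and 225 lay nearer the late mean and 170 nearer the early mean. For the 157 that fell it was 0.47 (quartiles 0.30 and 0.72), with 69 nearer the late mean and 88 nearer the early mean. By list, the median position of the risers was 0.77 for the 17 spore wall genes, 0.71 for the 9 plaque and leading edge genes, 0.70 for the 16 prospore membrane genes, 0.68 for the 7 cyclin and exit genes, 0.67 for the 10 APC/C genes and 0.53 for the 4 spindle genes. Members differed within these lists, with DIT2 at 0.11, CIN8 at 0.30 and CDC27 at 0.32. Among the fallers, the 7 glycolytic genes stood at 0.73 and the 6 iron uptake genes at 0.70. The 6 mitochondrial ribosomal protein genes that rose (0.31) and the 4 methylcitrate and carnitine genes that fell (0.34) were nearer the early mean. IME1 was still at its early level at 4 h (3.03, position 0.04). No test was made of these positions.

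**Figure D5:**
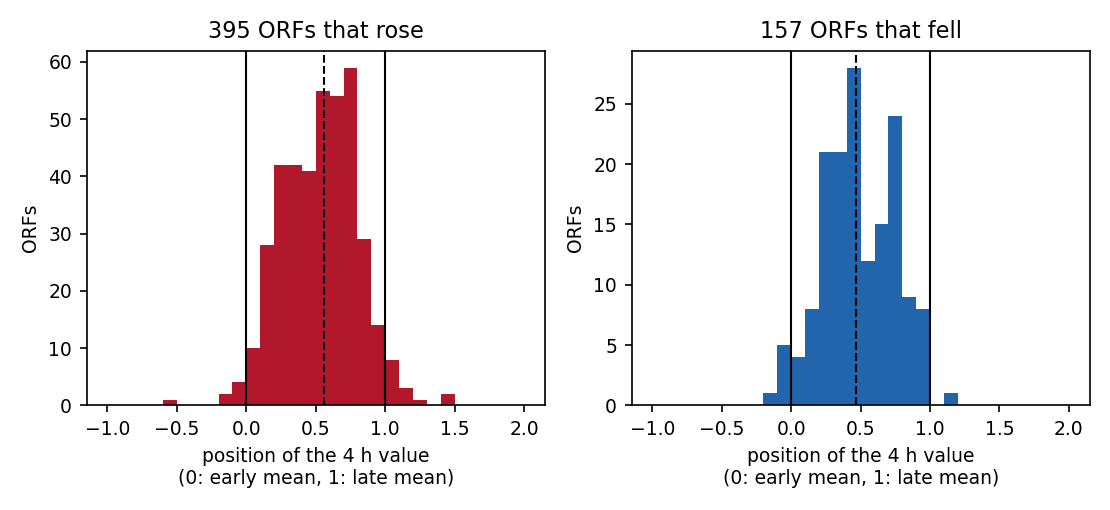
Number of ORFs by the position of their 4 h value between the early mean (0) and the late mean (1), for the 395 ORFs that rose (left) and the 157 that fell (right), with solid lines at 0 and 1 and a dashed line at the median. The medians are 0.56 and 0.47, and 14 risers and 1 faller lie beyond the late mean.

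Within the late block, the called ORFs differed in the time of their extreme value. The highest late value of the 395 risers came at 5 h for 108 of them, at 6 h for 246 and at 8 h for 41. The lowest late value of the 157 fallers was at 5 h for 30, at 6 h for 85 and at 8 h for 42. After quantile normalization the risers gave 133, 161 and 101, and the fallers 17, 61 and 79. The 41 risers highest at 8 h in the values as deposited include genes of several roles. EMI2, a gene of the glucokinase family, had 4.08, 4.67 and 5.45 late and -0.50, -0.65 and -0.63 early (5.33 ± 0.41 log2, limma adjusted p = 4.04e-06), and SOL1 had 3.47, 4.54 and 4.80 late and -0.09, -0.76 and -1.66 early (5.11). The early values of GNP1 and MUP1 were far below 0 h. GNP1, a glutamine permease gene, had 0.17, 0.17 and 0.57 late and -4.55, -4.38 and -2.88 early (4.24 ± 0.46 log2, adjusted p = 7.15e-05), and MUP1 was below 0 h in both blocks. SPR6, HXT10, GAT3, CTT1, DIT2, DBP3, ARO10, SSA3, GLN1 and ATG8 are in the set too. Of the 41, 15 passed with every array left out, and 18, 23, 16, 12, 10 and 10 were lost without 1, 2, 3, 5, 6 and 8 h.

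The gene lists covered 104 of the 395 risers and 50 of the 157 fallers. Among the risers in no list, chosen for mention after their values were seen, were CWP1, a cell wall mannoprotein gene with 2.71, 4.63 and 2.02 late and -2.11, -2.59 and -3.25 early (5.77 ± 0.59 log2, limma adjusted p = 4.14e-05), GAL7, of galactose use (5.23), HIM1 (5.32), ECM23 (5.73) and the GATA-family genes GAT4 (4.96) and GAT3 (3.29). CWP1 thus passed from well below to well above 0 h. The other GAT genes measured went the other way: GAT2 fell (-1.24, adjusted p = 0.049), and GAT1 differed by -1.74 without passing (adjusted p = 0.0798). Of the 435 tested ORFs that the reference table does not list, 23 rose (5.29%) and 7 fell (1.61%), beside 7.22% and 2.91% of the 5150 it lists. A neighbour by systematic number changed the same way for 16 of the 23 and 2 of the 7, such as HXT14 beside YNL319W (3.37), PGK1 beside YCR013C (-2.13), CLB1 beside YGR107W (2.93) and YPR078C beside YPR077C (6.30). The same count was not made for the ORFs that the reference table lists. A match with a neighbour therefore has no background share and cannot be called particular to the unlisted ORFs. Such ORFs can overlap a named gene, and the sources used here do not give the strand that each spot reads.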

How the data were processed

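Each deposited value is a log2 ratio. By the design text, the authors took Cy5 over Cy3 at each time, normalized it to the same ratio at 0 h and log2-transformed it. No label names the platform, the background correction, the normalization within arrays or the spot filters. Spot intensities were not used here, which leaves signal over background unknown, and the number of arrays limits the precision. ORFs that lack a value on at least 1 of the 6 arrays were left out (556, of which 50 lack one at 6 h only and 321 have one at 6 h only). The deposited log2 values were fitted without further scaling using limma 3.58.1 under R 4.3.3 (late minus early by lmFit with eBayes, 4 residual degrees of freedom, no covariate), with Benjamini-Hochberg adjustment over 5585 ORFs; p-values are two-sided and measure the spread between the times of a block. Whether the times stand for separate cultures is not stated. The fit was also run on simulated data with independent noise and no change within a block. That run cannot show whether times may stand in for replicates. The members and the 43 gene lists were chosen with earlier results of these data known. Named are 22 fixed genes, the 12 largest rises and 12 largest falls with a gene name, the 3 smallest adjusted p in each direction and, in each list, all members past the threshold where 5 or fewer, otherwise the 3 with the largest differences in each direction, and the highest and lowest member; further list members and genes outside the lists were added after their values were seen. Names come from the RefSeq R64 table, which lists 5150 of the 5585. No coordinates or sequences are given, and promoter motifs were not analysed here. A few members that the naming rule covers are not reported here. Alternatives were 8 settings and leaving out each array. Tables and plots used Python 3.11.15 with pandas 2.3.3, numpy 2.4.6 and matplotlib 3.10.9.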

Additional observations from a re-analysis of the deposited data

How the results depend on the processing

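Over the 14 alternatives 0 called ORFs passed in the opposite direction, and 156 of the 395 risers and 7 of the 157 fallers passed in all 14. A further 11 risers outside the reference table passed in the 13 that apply to them. Quantile normalization, centring on column medians, robust eBayes, the reference-table ORFs alone and ORFs with at least 2 values a block gave 503, 556, 554, 536 and 549 calls beside 552. The 503 calls with quantile normalization hold 299 of the 395 risers and 89 of the 157 fallers. Array weights, which set the 2 h array at 8.43 and every other array under 1, gave 1152 calls, 621 higher and 531 lower. With the 4 h array in the early block there were 349 calls, 78 of them lower, and with it in the late block 364, 74 of them lower; ORFs lower without overlap by at least 1 log2 then numbered 254 and 245 in place of 410. Leaving out 1 array at a time gave 255 to 812 calls, 238 to 521 higher and 17 to 291 lower, and 385 to 626 ORFs lower without overlap. The difference of IME2 turned to -2.35 (limma adjusted p = 0.00344) under quantile normalization, which forces the narrower early columns and the wider late ones onto 1 distribution. Of the 159 named genes, 109 passed; among these, 29 were lost with quantile normalization, 7 with centring, 36 and 31 with 4 h in the early and the late block, 29, 34 and 8 without 5, 6 and 8 h, and 44, 50 and 22 without 1, 2 and 3 h. No paired analysis was possible because the times of the late and the early block are different times with 1 array each, and no label pairs them.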

Other observations

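Gene families outside the lists, chosen after their values were seen, held further calls. All 3 measured sodium pump genes fell, ENA5 by 2.08, ENA1 by 2.02 and ENA2 by 1.55. ENA1 had -1.32, -3.41 and -1.48 in the late block and -0.47, -0.06 and 0.38 in the early block (limma adjusted p = 0.0318). The 3 genes are near-identical, so their values may not be separate measurements, and all 3 calls were lost without 2, 3 or 6 h (adjusted p up to 0.157). Of 16 PAU genes, a subtelomeric family of cell wall proteins with very similar sequences, 14 had a positive difference and 5 rose. PAU6 had 3.29, 4.49 and 3.27 late and 1.14, 0.94 and 0.87 early (2.70 ± 0.41 log2, adjusted p = 0.00115), and 4 of the 5 were lost without 1, 2, 3 or 6 h (up to 0.214).

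Of 29 PEX genes, which serve peroxisomes, 4 rose and 1 fell. Of the genes for peroxisome size and number, PEX34, PEX11, PEX31 and PEX27 had negative differences between -1.15 and -0.56 that did not pass. PEX25 had a positive difference of 0.29 that did not pass either (limma adjusted p = 0.712). PEX32 had 2.86, 2.18 and 2.71 late and 0.18, 0.02 and -0.51 early (2.69 ± 0.38 log2, limma adjusted p = 0.000611), and PEX28 rose by 2.62, PEX30 by 1.44 and PEX29 by 1.37, genes of the same kind. PEX21, which helps protein import, fell by 1.54. PEX32 and PEX28 passed with every array left out, while the other 3 did not (up to 0.157). In an 8-gene set for inositol and phospholipid synthesis, INO1, ITR1, the inositol transporter (-1.77), and OPI3, a phospholipid methyltransferase (-1.66), fell and 0 rose. ITR1 and OPI3 did not hold with every array left out (up to 0.151). Of 14 genes with a THI name, THI74 rose by 3.03 (adjusted p = 0.000113), and THI20, THI73, THI13 and THI11 fell, by 1.76, 1.65, 1.46 and 1.42. The 4 falls were lost without 2 h (up to 0.151), and THI11 and THI13 belong to a group of near-identical copies.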
